A study of Homo sapiens with 12 samples.

Results

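Interferon stimulated genes are the genes that cells switch on when an interferon binds its receptor. A named list of 41 of them was followed here among the 56638 gene symbols counted in 501Mel, an established human melanoma cell line with a BRAF-V600E mutation. Membership goes by symbol and has no threshold on a measured value, but the list was chosen with earlier results of these data known. Of the 41 genes, 33 had enough counts to be tested, out of 16080 tested genes in all.

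All cells were 501Mel cells treated for 48 h, and each of the 6 groups holds 2 libraries. The vehicle group received DMSO. The other groups received 1 μM Vemurafenib (Vem, a BRAF inhibitor), 5 μM Resveratrol (RSV, a plant polyphenol that the study used against the Aryl hydrocarbon Receptor, AhR), 10 nM TCDD (a dioxin that activates AhR), RSV+Vem or RSV+TCDD. The recorded treatment protocol gives 10 nM TCDD for RSV+TCDD, while the label of those libraries gives 1 nM, and this was not resolved. If the label is right, RSV+TCDD against TCDD and the interaction of RSV and TCDD also carry a difference in TCDD dose. A single cell line was used, so the values describe 501Mel alone. The labels do not say whether both libraries of a group came from separate cultures, and p-values then measure only the spread between these libraries.

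Interferons act through receptors on the cell surface, the kinases JAK1 and TYK2 and a complex of transcription factors that includes STAT2 and IRF9 and binds a DNA element called ISRE near its target genes. The products of these genes sense viral RNA, degrade it, block viral entry or translation, and attach the ubiquitin-like protein ISG15 to other proteins. Some of them, such as IRF1 and IRF7, are transcription factors themselves and act on the same targets, and tumour cells can carry a low activity of these genes without infection.

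The counts on genes ranged from 8378655 in RSV+Vem replicate 2 to 25076925 in vehicle replicate 2, and RIN values, a measure of intact RNA, ranged from 8.6 and 8.7 in RSV+Vem to 9.7. Melanocytic markers (MITF, MLANA, TYR, PMEL, SOX10, DCT) summed to between 9356 and 34823 CPM (counts scaled to library size) in every library, so the cells carried the markers of the labelled cell type. The treatments left their known marks. DUSP6, an ERK target, stood at 111 and 98.5 CPM with vehicle and at 1.81 and 0.692 with Vem, and CYP1A1, the classical AhR target, stood at 23.5 and 23.1 CPM with vehicle and at 156 and 131 with TCDD. CYP1A1 was also higher with RSV, at 69.0 and 67.5 CPM. Levels are CPM scaled with edgeR's TMM factors throughout, and fold changes are given as log2 with a standard error (SE).

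The promoters show what this list has in common outside the expression values. RefSeq promoter sequences (250 bases before to 50 bases after the gene start, GRCh38.p14) were matched for 32 of the 41 genes. The core of the ISRE, searched on both strands as GAAA, any 2 bases, and GAAA, was found in 20 of these 32 promoters (62.5%), against 3.57% of all 35116 promoters. The core of the GAS element, another interferon response element, TTCNNNGAA, was found in 10 (31.3%, against 7.66%). The core bound by AhR with ARNT, GCGTG, was found in 7 (21.9%, against 36.5%). The patterns were searched separately and may overlap. A match describes the letters only and does not show binding. Below are stretches upstream of 5 genes that the results turn on, located in GRCh37 by exact match and written in the direction of the gene, with the ISRE core or its reverse complement in capitals. IFIT3, IFI6, BST2 and ISG20 are genes that RSV raised, and DDX60 is one that it lowered.
IFIT3 (chr10:91087568-91087671, plus strand): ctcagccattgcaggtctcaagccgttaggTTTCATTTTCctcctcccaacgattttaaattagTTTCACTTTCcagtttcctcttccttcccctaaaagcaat
IFI6 (chr1:27998757-27998889, minus strand): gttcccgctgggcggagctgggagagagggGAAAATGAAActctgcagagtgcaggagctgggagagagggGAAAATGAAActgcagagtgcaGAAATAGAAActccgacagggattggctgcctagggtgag
BST2 (chr19:17516524-17516599, minus strand): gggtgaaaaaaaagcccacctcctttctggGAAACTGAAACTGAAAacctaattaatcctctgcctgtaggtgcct
ISG20 (chr15:89182148-89182217, plus strand): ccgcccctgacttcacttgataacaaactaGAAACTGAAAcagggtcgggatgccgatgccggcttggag
DDX60 (chr4:169239917-169240021, minus strand): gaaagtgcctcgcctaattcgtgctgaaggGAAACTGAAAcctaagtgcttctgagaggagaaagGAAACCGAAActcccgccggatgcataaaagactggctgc
IFI6 carries 3 cores, IFIT3, BST2 and DDX60 carry 2 each, with the cores of BST2 overlapping, and ISG20 carries 1.

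The 41 genes together took a small share of the transcriptome, and that share was higher in each of the 6 libraries with RSV than in each of the 6 without. It was 0.0481% and 0.0498% of gene counts with vehicle, 0.0533% and 0.0570% with Vem, and 0.0535% and 0.0555% with TCDD. The same share was 0.0913% and 0.0917% with RSV, 0.0792% in both libraries with RSV+Vem, and 0.0863% and 0.0888% with RSV+TCDD. In a bulk sample, more RNA per cell in all cells and more cells with a high level cannot be told apart.

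Per kilobase of exon, the level over all 12 libraries was highest for IFI6, a mitochondrial and endoplasmic reticulum protein that protects against cell death, at 145 CPM per kb. In GENCODE, 23.1% of its exonic bases overlap LINC02574 on the same strand. IFI35 followed at 17.6, then STAT2 at 12.6, IFITM3 at 11.9 and ISG15 at 11.7 CPM per kb. At the other end stood 8 genes that were not tested: CMPK2, EPSTI1, IFI44L, IFITM1, MX2, RSAD2, TRIM22 and XAF1. None of them exceeded 13 counts in any library. Several of these are among the genes that a strong interferon response usually raises, such as RSAD2, an enzyme that makes a chain-terminating nucleotide, and MX2, a GTPase that blocks retroviruses. With vehicle, IFI6 stood at 85.0 CPM per kb, IFI35 at 12.5, IFITM3 at 8.76, ISG15 at 7.89 and STAT2 at 7.66. Levels in vehicle cells were thus uneven across the list, and they were not compared with an outside reference.

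**Figure D1:**
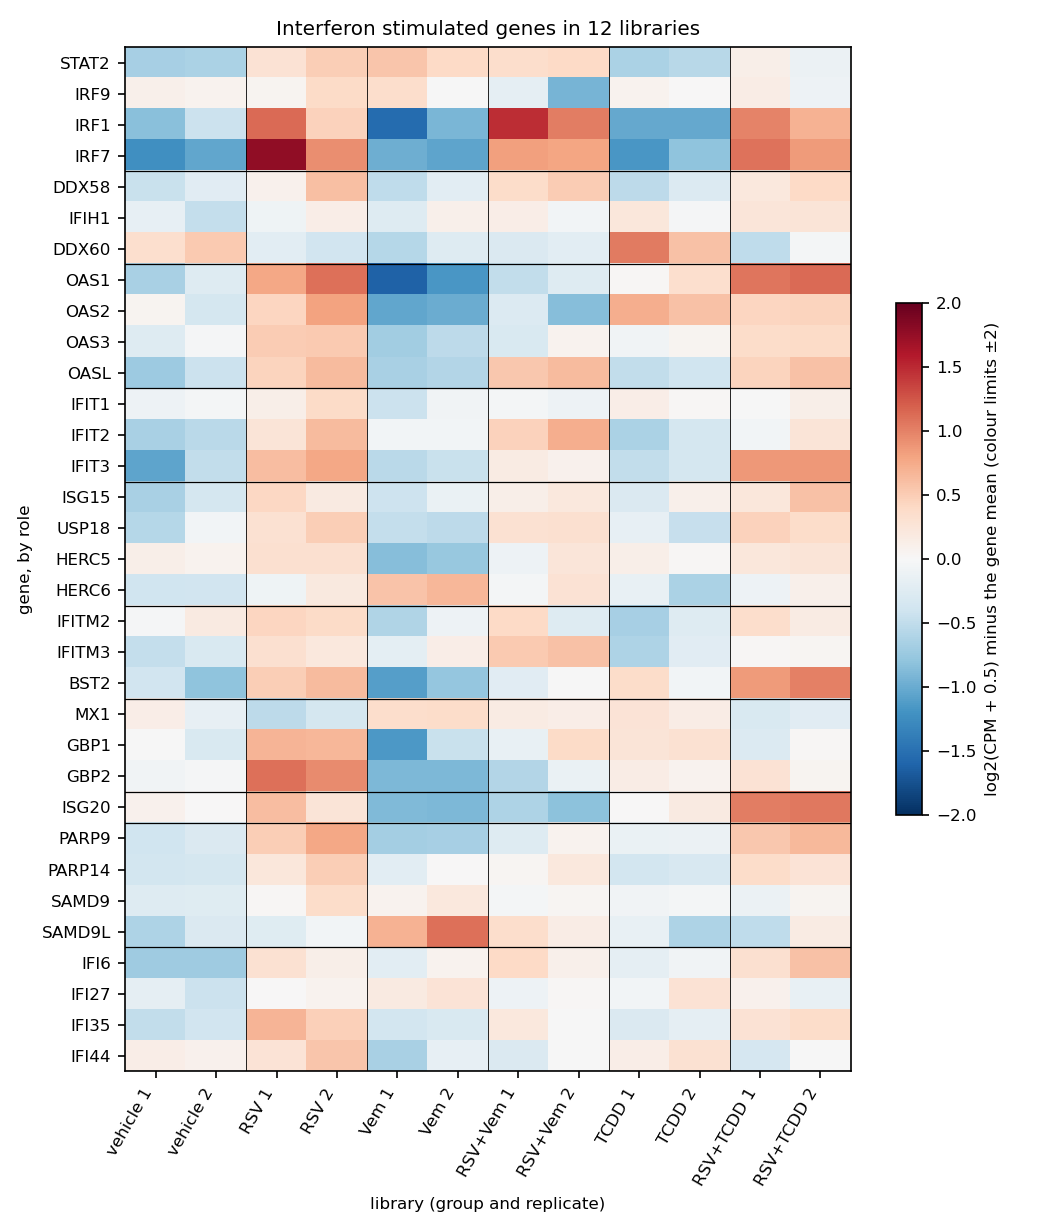
Rows are the 33 tested interferon stimulated genes ordered by role (black lines part the roles) and columns are the 12 libraries. Colour gives log2(CPM + 0.5) minus the mean of the gene, from blue (low) to red (high), and the RSV, RSV+Vem and RSV+TCDD columns hold most of the red cells, IRF7 and IRF1 among them.

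The first question was what RSV alone did to these genes. Compared with vehicle, 23 of the 33 tested genes were higher and 2 lower at an adjusted p below 0.05 (quasi-likelihood F test in edgeR, Benjamini-Hochberg values over all tested genes), and among all tested genes 20.5% were higher and 20.4% lower. The median log2 fold change of the tested list was 0.73, beside 0.00 for all tested genes. A gene can pass the filter through the group in which it is high, so such counts describe the tested genes and are no separate support. Of the 23 increases, 16 kept their call in every alternative other than spike-in scaling.

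Among the transcription factors, IRF7, the factor that drives the late wave of interferon genes, changed most. It had 3 and 6 counts with vehicle, which is 0.152 and 0.243 CPM, and 78 and 46 counts with RSV, which is 4.70 and 2.42 CPM. It was almost silent in vehicle cells and was counted in both RSV libraries. The log2 fold change was 4.08 ± 0.44 (SE, adjusted p = 4.53e-06) and stayed between 3.53 and 4.49 when single libraries were left out. IRF1, an early factor that can act without STAT2, stood at 1.57 and 2.23 CPM with vehicle and at 7.60 and 4.57 with RSV (log2 fold change 1.65 ± 0.29, adjusted p = 0.000341). STAT2, the subunit that gives the ISRE complex its activation domain, stood at 70.5 and 72.1 CPM with vehicle and at 136 and 157 with RSV (1.04 ± 0.10, adjusted p = 2.15e-06). All 3 factors were higher in both RSV libraries than in either vehicle library. Their partner IRF9 was low, between 1.15 and 1.58 CPM in these 4 libraries, and was not called (0.20 ± 0.34, adjusted p = 0.674).

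All 4 genes of the oligoadenylate synthetase family were higher with RSV. OAS1, OAS2 and OAS3 make the messenger that activates the RNA-degrading enzyme RNase L. OAS1 stood at 1.42 and 2.02 CPM with vehicle and at 4.64 and 5.94 with RSV (1.60 ± 0.25, adjusted p = 0.000112). OAS3, which had the most counts of the family, rose from 33.1 and 38.9 CPM to 56.6 and 56.9 (0.65 ± 0.13, adjusted p = 0.000693). OASL, which supports the RNA sensor RIG-I, rose by 1.84 ± 0.37 (adjusted p = 0.000945). The OAS2 increase of 1.17 ± 0.37 (adjusted p = 0.0188) was lost in DESeq2 and without vehicle replicate 2 or RSV replicate 2.

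The IFIT family binds foreign RNA ends and was split. IFIT3 rose from 12.9 and 19.3 CPM to 42.2 and 46.8 (1.46 ± 0.15, adjusted p = 2.58e-06), and its range without single libraries was 1.20 to 1.79. IFIT2 rose by 1.18 ± 0.22 (adjusted p = 0.000456). IFIT1, a strongly inducible member in many cells, stood at 10.7 and 11.2 CPM with vehicle and at 12.6 and 15.3 with RSV, and the difference of 0.35 ± 0.15 missed the threshold (adjusted p = 0.0766). Its promoter holds 2 ISRE cores, like that of IFIT3.

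The RNA helicases that sense viral RNA did not move together. DDX58 (RIG-I) rose by 0.76 ± 0.20 (adjusted p = 0.00695), a call lost without vehicle replicate 1 or RSV replicate 2. IFIH1 (MDA5), the helicase with the most counts, stood at 16.5 and 13.1 CPM with vehicle and at 17.4 and 20.2 with RSV, and was not called (0.35 ± 0.16, adjusted p = 0.0842). DDX60, which assists RIG-I, went the other way. It stood at 5.67 and 6.55 CPM with vehicle and at 3.74 and 3.26 with RSV (-0.81 ± 0.23, adjusted p = 0.00944), although the stretch printed for it carries 2 ISRE cores. That call was lost without vehicle replicate 2 (adjusted p = 0.0577) or RSV replicate 2 (adjusted p = 0.0623).

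In the ISG15 system, 3 of 4 genes were higher. ISG15 itself rose by 0.83 ± 0.19 (adjusted p = 0.00228). USP18, the protease that removes ISG15 and also damps the receptor, rose by 0.71 ± 0.18 (adjusted p = 0.00416), a call lost without vehicle replicate 1. HERC5, the main ISG15 ligase, stood at 32.4 and 31.3 CPM with vehicle and at 37.4 and 37.6 with RSV, and was not called (0.23 ± 0.12, adjusted p = 0.124). Its neighbour HERC6 rose by 0.48 ± 0.18 (adjusted p = 0.0371), which 6 of 17 alternatives without spike-ins did not keep, among them leaving out either vehicle library or RSV replicate 2.

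Of the membrane proteins that block virus entry or release, BST2 (tetherin) rose by 1.79 ± 0.37 (adjusted p = 0.00124) and IFITM3 from 23.3 and 26.5 CPM to 40.8 and 38.0 (0.66 ± 0.14, adjusted p = 0.00134). IFITM2 was not called. The IFITM genes are near copies of each other, and reads that fit more than 1 of them were counted at a single place, so their values are uncertain. Among the large GTPases, GBP2 rose by 1.19 ± 0.20 (adjusted p = 0.000243) and GBP1 by 0.94 ± 0.25 (adjusted p = 0.00667, lost without vehicle replicate 2). MX1, a GTPase that traps viral capsids, stood at 6.12 and 4.90 CPM with vehicle and at 3.68 and 4.20 with RSV (-0.47 ± 0.18, adjusted p = 0.0475). That call was kept in 1 of 17 alternatives without spike-ins, and the value was -0.31 without vehicle replicate 1 (adjusted p = 0.262).

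The remaining increases were moderate. PARP9 rose by 1.00 ± 0.12 (adjusted p = 1.66e-05) and PARP14 from 47.7 and 48.3 CPM to 72.6 and 86.7 (0.73 ± 0.11, adjusted p = 0.000107). These ADP-ribosylation enzymes modulate STAT signalling. IFI35, a partner of other interferon induced proteins, rose by 1.03 ± 0.12 (adjusted p = 6.61e-06), and IFI6 rose from 79.6 and 79.5 CPM to 162 and 141 (0.93 ± 0.13, adjusted p = 3.57e-05). SAMD9, an antiviral protein, rose by 0.47 ± 0.13 (adjusted p = 0.00956), a call lost without RSV replicate 2. ISG20, an exonuclease, stood at 24.8 and 23.5 CPM with vehicle and at 36.4 and 28.1 with RSV (0.41 ± 0.13, adjusted p = 0.0186). Without RSV replicate 1 its value was 0.21 (adjusted p = 0.271), and without vehicle replicate 2 it was also not called (adjusted p = 0.0811). SAMD9L, IFI27 and IFI44 were not called.

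Of the tested genes with a matched promoter, 10 of 17 with an ISRE core were higher in RSV against vehicle and 2 lower. Without the core, 7 of 9 were higher and 0 lower. Among all tested genes, 20.5% were higher and 20.4% lower. DDX60 and MX1 are the 2 lower genes with the core. IRF1 and OAS1, which were higher, hold no ISRE core in the searched window but hold a GAS core, as does DDX60.

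The next question was whether RSV had a like effect on top of Vem or TCDD. RSV+Vem against Vem and RSV+TCDD against TCDD share no library with each other or with RSV against vehicle, although 1 model estimated the spread for all. Beside Vem, 16 tested genes of the list were higher with RSV and 1 lower, where 19.2% of all tested genes were higher and 18.7% lower, and the median of the list was 0.49 beside 0.03. Without Vem replicate 1, 7 genes were called beside Vem in place of 17. Beside TCDD, 19 were higher and 2 lower, where 18.6% of all tested genes were higher and 19.1% lower, and the median was 0.55 beside -0.01. Without TCDD replicate 1 or RSV+TCDD replicate 2, 13 genes were called beside TCDD in place of 21. Of the genes higher with RSV alone, 15 of 23 were also higher beside Vem, where they made 15 of 16. Beside TCDD, 18 of the 23 were higher, where they made 18 of 19. The matching overlaps among all tested genes were not computed, so these counts do not show that the list overlapped more than other genes.

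BST2, DDX58, IFI35, IFI6, IFIT2, IFIT3, IFITM3, IRF1, IRF7, OAS1, OAS3, OASL, PARP9 and USP18 were higher in all 3 pairs of groups. These are 14 of the 33 tested genes, and 6.77% of all tested genes met the same rule. The number was 6 without Vem replicate 1, 7 without TCDD replicate 1 and 9 without RSV+TCDD replicate 2, and lay between 11 and 15 in the other alternatives without spike-ins. IRF1, IRF7, IFIT3 and PARP9 kept all 3 calls in each of these alternatives.

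**Figure D2:**
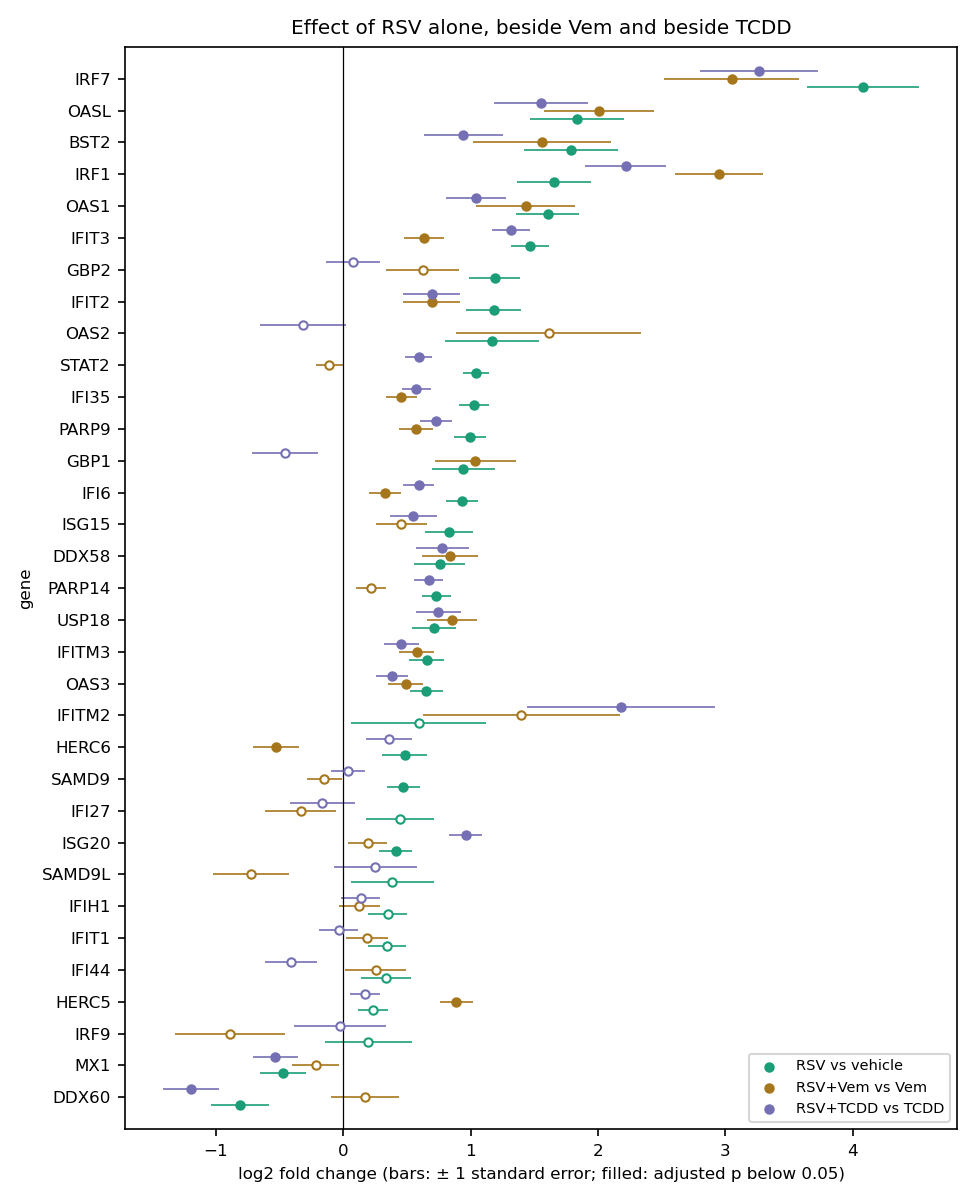
Points give the log2 fold change of each tested gene for RSV against vehicle (green), RSV+Vem against Vem (brown) and RSV+TCDD against TCDD (purple), bars are ± 1 SE, and filled points have an adjusted p below 0.05. IRF7 lies at the top in all 3, DDX60 lies at -0.81 and -1.19 without Vem and at 0.17 beside it, and most genes lie to the right of 0.

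IRF7 stood at 0.278 and 0.231 CPM with Vem and at 2.18 and 2.14 with RSV+Vem (3.05 ± 0.53, adjusted p = 0.000261). With TCDD it stood at 0.181 and 0.368 CPM and with RSV+TCDD at 2.74 and 2.26 (3.26 ± 0.46, adjusted p = 6.48e-05). No library with RSV came near one without it. IRF1 behaved alike, with 0.765 and 1.46 CPM with Vem against 9.74 and 6.97 with RSV+Vem (2.95 ± 0.34, adjusted p = 6.54e-06). It stood at 1.31 and 1.32 CPM with TCDD against 6.84 and 5.47 with RSV+TCDD (2.22 ± 0.32, adjusted p = 6.94e-05). OAS1 rose by 1.43 ± 0.39 beside Vem (adjusted p = 0.00853) and by 1.04 ± 0.23 beside TCDD (adjusted p = 0.00253), calls lost without Vem replicate 1 and without TCDD replicate 1. IFIT3 rose from 18.6 and 19.98 CPM to 30.7 and 29.0 beside Vem (0.64 ± 0.16, adjusted p = 0.00425). Beside TCDD it rose from 19.2 and 21.2 CPM to 50.4 and 49.99 (1.32 ± 0.15, adjusted p = 6.93e-06).

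**Figure D3:**
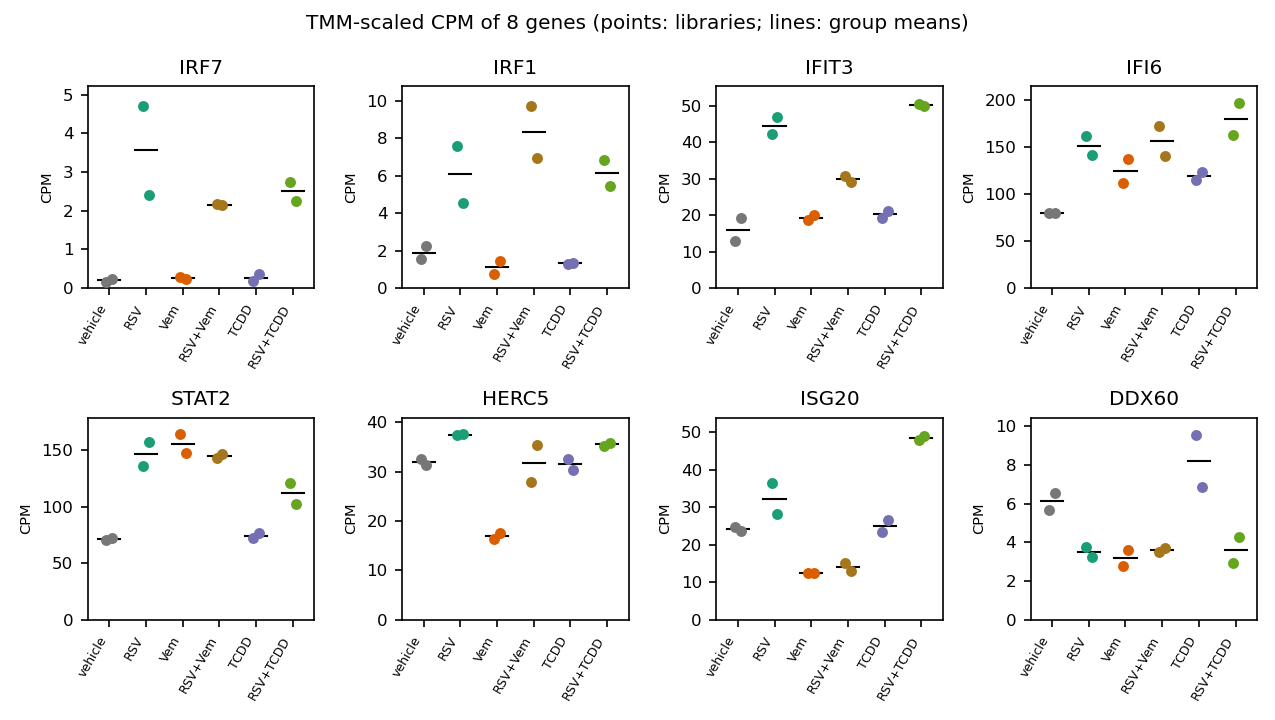
Each panel shows 1 gene, with TMM-scaled CPM on a vertical axis that starts at 0, the 6 groups along the horizontal axis, 1 point per library and a line at the group mean. IRF7 and IRF1 are high in the 3 groups with RSV, STAT2 is high with Vem as well as with RSV, ISG20 is low in both groups with Vem, and DDX60 is highest with vehicle and TCDD.

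Of the next 5 genes, HERC5 and HERC6 had a called difference between the effect of RSV beside Vem and without it, given with the interactions, while that of DDX60 (adjusted p = 0.0547 beside Vem), MX1 and ISG20 was not called, either beside Vem or beside TCDD. HERC5, not called with RSV alone, rose beside Vem from 16.3 and 17.5 CPM to 27.9 and 35.4 (0.89 ± 0.13, adjusted p = 5.48e-05). HERC6 fell beside Vem from 17.5 and 18.8 CPM to 11.3 and 14.3 (-0.53 ± 0.18, adjusted p = 0.0277). The HERC6 call was lost without either Vem library or RSV+Vem replicate 1, where it was -0.35. DDX60 fell beside TCDD from 9.52 and 6.84 CPM to 2.94 and 4.29 (-1.19 ± 0.22, adjusted p = 0.000582). It was not called beside Vem, where it was already low (0.17 ± 0.27, adjusted p = 0.646). MX1 was lower beside TCDD (-0.53 ± 0.18, adjusted p = 0.0264), a call lost in 6 of 17 alternatives, which include leaving out any of the 4 libraries compared. ISG20 rose beside TCDD from 23.4 and 26.5 CPM to 48.0 and 49.0 (0.96 ± 0.13, adjusted p = 4.30e-05).

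Several smaller increases leaned on single libraries. IFITM3 rose by 0.58 ± 0.14 beside Vem (adjusted p = 0.00393, and 0.0808 without Vem replicate 1). Beside TCDD it rose by 0.46 ± 0.14 (adjusted p = 0.0172), and without TCDD replicate 1 its value was 0.26 (adjusted p = 0.281). OAS3 rose by 0.49 ± 0.14 beside Vem (adjusted p = 0.0091) and by 0.39 ± 0.13 beside TCDD (adjusted p = 0.0243). The former was 0.30 without RSV+Vem replicate 2 (adjusted p = 0.136) and was also lost without Vem replicate 1, and the latter was lost without any of the 4 libraries compared. IFI6 rose by 0.59 ± 0.12 beside TCDD (adjusted p = 0.00154). Beside Vem its adjusted p was 0.05 when rounded (0.33 ± 0.13), and 8 of 17 alternatives did not keep the call, with values of 0.19 without Vem replicate 1 and 0.17 without RSV+Vem replicate 1. For IFITM2, which was higher beside TCDD, 22 counts stood against 4, a ratio of 4.8 with a 95% counting interval of 1.63 to 19.2.

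The third question was what Vem did. Compared with vehicle, Vem left 8 tested genes of the list higher and 9 lower, where 25.4% of all tested genes were higher and 27% lower. The list's median was -0.03, the same as that of all tested genes at 2 decimals. The shares of the list called were thus close to those of all genes, and the changes concern which genes moved. Without Vem replicate 1, 10 genes were called in place of 17.

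STAT2 was the most counted of the genes that rose. It stood at 70.5 and 72.1 CPM with vehicle and at 164 and 147 with Vem (1.13 ± 0.10, adjusted p = 2.11e-07). SAMD9L, an antiviral relative of SAMD9, rose from 1.32 and 1.78 CPM to 4.03 and 5.53 (1.60 ± 0.30, adjusted p = 0.00031), and HERC6 from 8.70 and 8.78 to 17.5 and 18.8 (1.05 ± 0.17, adjusted p = 9.71e-05). These increases were kept in all 17 alternatives without spike-ins and were not called with spike-in scaling. IFI6 rose from 79.6 and 79.5 CPM to 112 and 137 (0.65 ± 0.13, adjusted p = 0.000395), was kept in the same alternatives and was -0.0016 under spike-in scaling. IFITM3 rose by 0.37 ± 0.14 (adjusted p = 0.0363), was lost without vehicle replicate 1 or Vem replicate 2 (0.20), and turned to -0.28 under spike-in scaling. IFIT2, SAMD9 and IFI27 were also called higher, and IFI27 kept that call in 2 of 17 alternatives.

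The genes that fell with Vem include 3 of the 4 genes of the oligoadenylate synthetase family. OAS1 stood at 1.42 and 2.02 CPM with vehicle and at 0.487 and 0.845 with Vem (-1.39 ± 0.37, adjusted p = 0.00445). OAS3 fell from 33.1 and 38.9 CPM to 24.3 and 27.5 (-0.48 ± 0.13, adjusted p = 0.00589). Both calls were lost without vehicle replicate 2 or Vem replicate 1. OAS2 had 30 counts with vehicle and 4 with Vem, a ratio of 0.216 with a 95% counting interval of 0.0554 to 0.614. ISG20 fell from 24.8 and 23.5 CPM to 12.5 and 12.3 (-0.96 ± 0.14, adjusted p = 2.99e-05), HERC5 from 32.4 and 31.3 to 16.3 and 17.5 (-0.91 ± 0.13, adjusted p = 1.4e-05), and GBP2 from 2.99 and 3.07 to 1.46 in both libraries (-1.05 ± 0.26, adjusted p = 0.0028). These 3 were kept in all 17 alternatives. DDX60 fell from 5.67 and 6.55 CPM to 2.78 and 3.61 (-0.94 ± 0.24, adjusted p = 0.00345, and 0.0572 without Vem replicate 1). The decreases of PARP9 and IFI44 were each lost in 8 of 17 alternatives.

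Added to RSV, Vem left 1 tested gene of the list higher and 9 lower, where 11.2% of all tested genes were higher and 13.1% lower, with a median of -0.24 beside 0.00. Without RSV+Vem replicate 1, 6 genes were called in place of 10. This pair of groups shares no library with Vem against vehicle. GBP2, IFI44, ISG20, OAS1, OAS2, OAS3 and PARP9 were lower in both, which is 7 of 9 in each list and 7 of the 33 tested genes, where 9.49% of all tested genes were lower in both. The number lay between 3 and 8 in the alternatives, except for 2 without Vem replicate 1. It was 3 without vehicle replicate 2 and 4 without vehicle replicate 1.

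**Figure D4:**
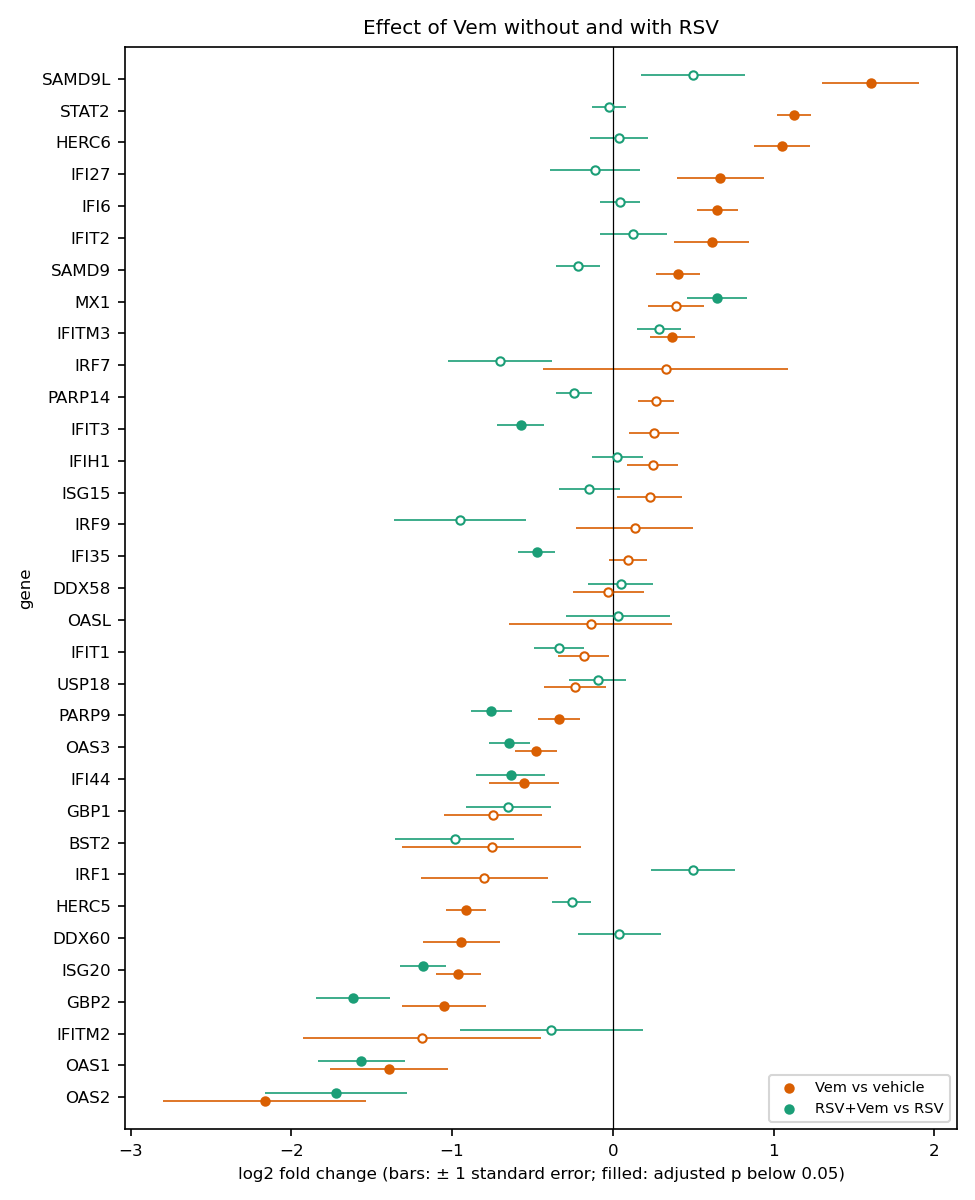
Points give the log2 fold change of each tested gene for Vem against vehicle (orange) and RSV+Vem against RSV (green), bars are ± 1 SE, and filled points have an adjusted p below 0.05. OAS1, GBP2 and ISG20 lie below -0.9 in both, and SAMD9L, STAT2 and HERC6 lie above 1 without RSV and between -0.02 and 0.50 with it.

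With RSV present, OAS1 fell from 4.64 and 5.94 CPM to 1.65 and 2.02 (-1.57 ± 0.27, adjusted p = 0.000608), which is the range of the vehicle libraries. GBP2 fell from 7.35 and 6.51 CPM to 1.92 and 2.81 (-1.62 ± 0.23, adjusted p = 0.000112) and ISG20 from 36.4 and 28.1 to 15.1 and 13.0 (-1.18 ± 0.14, adjusted p = 2.26e-05). These decreases held in all 17 alternatives without spike-ins. OAS3 fell by 0.64 on the log2 scale (SE 0.13, adjusted p = 0.00192, and 0.0584 without RSV+Vem replicate 1). IFIT3 fell from 42.2 and 46.8 CPM to 30.7 and 29.0 (-0.57 ± 0.15, adjusted p = 0.00979), and that call was lost without RSV replicate 2 or either RSV+Vem library. MX1, the gene that rose, went from 3.68 and 4.20 CPM to 6.28 and 6.07 (0.65 ± 0.19, adjusted p = 0.0201). It was not called in DESeq2 or without RSV replicate 1 or either RSV+Vem library.

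Whether RSV and Vem acted independently was tested as an interaction, the effect of RSV beside Vem minus its effect without. It was positive for 1 tested gene of the list and negative for 7, where 12% of all tested genes were positive and 10.7% negative, and the median was -0.22 beside 0.02. STAT2 gave the clearest case. It was high with Vem and with RSV and no higher with both, at 142 and 147 CPM in RSV+Vem, and RSV beside Vem changed it by -0.11 ± 0.10 (adjusted p = 0.44). The interaction was -1.15 ± 0.15 (adjusted p = 5.74e-05). HERC6, at -1.01 ± 0.25 (adjusted p = 0.00857), was the other gene that kept its interaction in all 17 alternatives without spike-ins. HERC5 had the positive interaction, 0.66 ± 0.17 (adjusted p = 0.0129), and stood at 27.9 and 35.4 CPM in RSV+Vem against 16.3 and 17.5 with Vem. That call was lost without Vem replicate 1 (adjusted p = 0.0647) or RSV+Vem replicate 2 (adjusted p = 0.0755). Without Vem replicate 2, 3 interactions of the list were called in place of 8. RIN was lowest in RSV+Vem and its replicate 2 had the fewest counts, and their part in these values was not tested.

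TCDD alone gave few calls in the list, as it did among all tested genes. Compared with vehicle, 1 tested gene was higher and 0 lower by edgeR's quasi-likelihood test, where 4.5% of all tested genes were higher and 1.9% lower. At an unadjusted p below 0.05, 6 were higher and 1 lower, and the median was 0.18 beside 0.00. Of the 33 tested genes, 26 lay above the median of all tested genes. The called gene was IFI6, which stood at 79.6 and 79.5 CPM with vehicle and at 115 and 124 with TCDD (0.59 ± 0.13, adjusted p = 0.0106). Its groups did not overlap, and the call was lost without TCDD replicate 1 (adjusted p = 0.0523) or TCDD replicate 2 (adjusted p = 0.102). The next lowest adjusted p-values were those of BST2 (1.30 ± 0.39, adjusted p = 0.0581) and OAS2 (1.21 ± 0.37, adjusted p = 0.0605). IFITM2 had the largest value in size, -1.85 ± 0.76 (adjusted p = 0.167), from 4 counts with TCDD against 19 with vehicle. Values that missed the threshold do not show that the remaining genes were alike in both groups. DESeq2 also called 1 gene higher and 0 lower.

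Added to RSV, TCDD left 1 tested gene of the list higher and 3 lower, where 3.61% of all tested genes were higher and 2.08% lower, with a median of -0.07 beside 0.00. ISG20 went from 36.4 and 28.1 CPM with RSV to 48.0 and 49.0 with RSV+TCDD (0.59 ± 0.13, adjusted p = 0.0127) and turned to -0.45 under spike-in scaling. GBP2 fell from 7.35 and 6.51 CPM to 3.95 and 3.30 (-0.93 ± 0.20, adjusted p = 0.0121) and GBP1 from 5.49 and 5.41 to 2.58 and 3.30 (-0.88 ± 0.25, adjusted p = 0.0487). STAT2 fell from 136 and 157 CPM to 121 and 103 (-0.40 ± 0.10, adjusted p = 0.0342). None of these 4 calls held in every alternative. ISG20 was lost without RSV replicate 2 or either RSV+TCDD library, GBP2 without RSV replicate 1 or RSV+TCDD replicate 2, GBP1 without any of the 4 libraries compared, and STAT2 without RSV replicate 2, RSV+TCDD replicate 2 or any library with Vem or TCDD alone. The interaction of RSV and TCDD was called for 0 of the 33 tested genes by edgeR and by DESeq2, with 8 at an unadjusted p below 0.05 in edgeR (1 positive and 7 negative), where 0.00622% of all tested genes were positive and 0.118% negative. Its median was -0.28 beside 0.00.

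**Figure D5:**
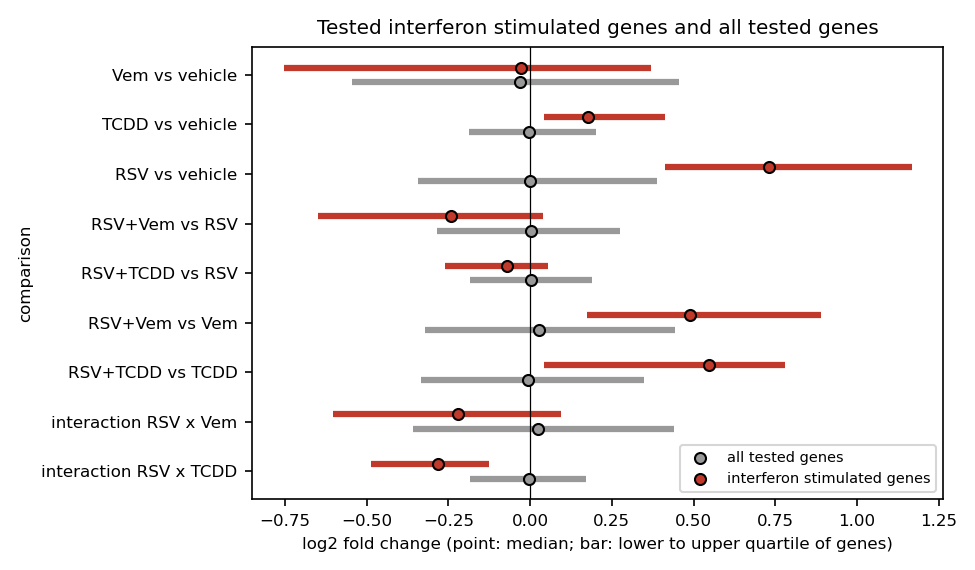
For each comparison, the red point is the median log2 fold change of the 33 tested interferon stimulated genes and the grey point that of all 16080 tested genes, with bars from the lower to the upper quartile of the genes. The list lies highest above all genes in RSV against vehicle (0.73 beside 0.00) and level with them in Vem against vehicle (-0.03 for both).

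The genes of the pathway around the list were counted in the same way, from a further list of 72 symbols of which 48 were tested. No interferon transcript was seen at any useful level. Of the 13 interferon genes listed, none had more than 1 count in any library, and 2 had any, with 3 counts in all. RSV against vehicle left 16 of the 48 genes higher and 1 lower, where 20.5% and 20.4% of all tested genes were. Beside Vem, 11 were higher and 9 lower with RSV, near the shares of all tested genes (19.2% and 18.7%), and beside TCDD 12 were higher and 1 lower (18.6% and 19.1%). Vem against vehicle left 14 higher and 12 lower, also near the shares of all tested genes (25.4% and 27%). TCDD against vehicle moved 0 by edgeR and by DESeq2, with 8 at an unadjusted p below 0.05 in edgeR, where 4.5% of all tested genes were higher and 1.9% lower.

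At the receptor, IFNAR1 stood at 59.5 and 60.6 CPM with vehicle and at 56.7 and 68.7 with RSV and was not called (0.06 ± 0.14, adjusted p = 0.75). IFNAR2 was not called with RSV (0.27 ± 0.14, adjusted p = 0.12) and was lower with Vem, at 9.60 and 8.22 CPM against 14.3 and 16.3 (-0.78 ± 0.15). Below the receptor, JAK1 (0.20) was not called with RSV, while TYK2 rose by 0.43 and STAT3 by 0.44.

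TMEM173 (STING), the adaptor that relays cytosolic DNA to IRF3, rose with RSV from 3.44 and 4.69 CPM to 17.5 and 16.1 (2.03 ± 0.17, adjusted p = 4.79e-07). IRF3 itself was not called (0.23), and neither were the adaptor MAVS (0.21) and the kinase TBK1 (0.15). Of the 12 tested sensors and adaptors, counted with IRF3, 2 were higher with RSV and 0 lower, where 20.5% and 20.4% of all tested genes were. The kinase IKBKE stood at 5.77 and 6.72 CPM with vehicle and at 9.04 and 9.25 with RSV. The sensor MB21D1 (cGAS) had at most 1 count in any library and was not tested. SOCS1, a feedback inhibitor of the kinases, rose by 2.50 with RSV, from low levels of 0.202 and 0.364 CPM to 2.59 and 0.841. Other effectors that rose with RSV include DTX3L, the partner of PARP9, by 1.04, UBA7, the ISG15 activating enzyme, by 1.56, and the nucleotide-removing enzyme SAMHD1 by 0.70. CD274 (PD-L1), an immune checkpoint ligand, rose by 0.85. PNPT1, a mitochondrial RNA exonuclease, was the gene that fell, from 86.6 and 98.3 CPM to 46.3 and 46.5 (-0.99). The chemokines CXCL9, CXCL10 and CXCL11, which mark a strong response, did not pass the filter.

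Markers of other cell types and of the melanocytic state were read beside these results. With RSV against vehicle, all 6 melanocytic markers were lower, and their sum was 9356 to 10134 CPM against 13868 to 14528. The leukocyte list of 7 genes summed to 0.405 to 0.759 CPM with vehicle and to 2.53 to 3.31 with RSV, carried by CD68, CSF1R and ITGAM, while the defining markers PTPRC and CD3E did not exceed 4 counts in any library. The plasmacytoid dendritic cell list of 3 genes summed to at most 0.562 CPM and the keratinocyte list of 3 genes to at most 0.112. The fibroblast list of 4 genes summed to 12.8 to 15.99 CPM with vehicle, 13.6 to 17.1 with RSV and 32.1 to 39.6 with TCDD, mostly from LUM. The endothelial list of 3 genes summed to 0.283 to 0.557 CPM with vehicle and to 1.21 in both RSV libraries. The part of these changes in the interferon stimulated genes was not tested.

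Scaling to the ERCC spike-ins in place of TMM moved the median of all tested genes by -0.17 for RSV against vehicle, -0.04 for RSV+Vem against Vem, -0.69 for RSV+TCDD against TCDD, -0.65 for Vem against vehicle, -0.51 for TCDD against vehicle, -0.53 for RSV+Vem against RSV and -1.03 for RSV+TCDD against RSV. New scaling factors shift all genes of a comparison almost alike. The list's own median, taken relative to that median, could therefore hardly move, and its stability is no support. It lay 0.73 above all genes with TMM and 0.72 with spike-ins for RSV against vehicle, 0.46 and 0.47 for RSV+Vem against Vem, and 0.55 and 0.52 for RSV+TCDD against TCDD, although the last turned from 0.55 to -0.18 without that reference. The share of ERCC counts was 0.0389% in RSV+Vem replicate 1 and 0.0903% in replicate 2, so this scaling carried a wide spread of its own. Under it the genes of the list called higher with RSV numbered 1, 2 and 2. Of all tested genes, 261, 337 and 162 were called higher in the same comparisons, against 3302, 3089 and 2992 with TMM.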

How the data were processed

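RNA of 501Mel cells was extracted, and the authors prepared stranded mRNA libraries (TruSeq), aligned read pairs to hg19 with STAR 2.4.0a, and ran featureCounts (Subread 1.5.0-p3) to assign them to gene symbols. The deposited values are these raw counts, not normalized and not corrected for PCR copies, so counting intervals cover counting error only. The annotation release is not given in the sources used here. Of 11 antisense genes within exons of another gene, those opposite the 4 most counted genes held 0 to 8 counts against 8496 to 72364, so the counts were taken as sense reads. PHKA2-AS1, with 1559 counts against 4873 for PHKA2, and ARSD-AS1, with 18 against 4 for ARSD, held more. Of the 41 genes, 8 overlap another gene on the same strand in GENCODE, and reads there may be uncounted. Exon lengths are from GENCODE on GRCh37.

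The 96 control sequences (92 ERCC) were removed. edgeR 4.0.16 (R 4.3.3) kept 16080 genes with filterByExpr by group, scaled them with TMM factors between 0.890 and 1.08, and used its quasi-likelihood fit over the 12 libraries, in which each group has its own mean. Adjusted p-values are Benjamini-Hochberg values over all tested genes, called below 0.05. Each SE is the size of the log2 fold change divided by the square root of its F statistic. It is therefore derived from the test, not estimated separately, and is approximate, above all for genes with few counts. With 2 libraries against 2, exact permutation of 1 gene's values could not go below p = 0.333. Alternatives were DESeq2 1.42.0, RLE factors, ERCC scaling, no filter, a replicate block, only the libraries compared, and leaving out each of 12 libraries. On simulated data for RSV against vehicle (16080 genes, 200 changed) edgeR called 190 changed and 10 unchanged genes. The genes changed there were not among the lowest counted, and no simulated log2 fold change was below 1 in size. Recovery of smaller changes or of genes with few counts was thus not tested.

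The 41 genes and the lists around them were chosen with earlier results of these data known. The rule for named genes took the most counted gene of each of 10 roles and, per comparison, up to 3 called genes in each direction with the largest change, no overlap between groups and, in the higher group, 50 or more counts on average. Genes outside that rule (BST2, OASL, OAS2, IFIT1, IFIT2, DDX58, ISG15, PARP9, SAMD9, IFI27, IFI35, IFI44, IFITM2, IRF9 and the pathway genes) were named after their values were seen. Figures were drawn with matplotlib 3.10.9. The values of 1 gene of the pathway are not reported here.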

Additional observations from a re-analysis of the deposited data

Results flagged for a closer look

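For 8 genes of the list, the effect of RSV beside Vem differed from its effect without Vem by edgeR's test of the interaction. Negative values mean that the log2 fold change with RSV was lower beside Vem than without it. The interaction was -1.15 for STAT2, -0.83 for IFIT3, -1.01 for HERC6, -0.51 for PARP14, -0.62 for SAMD9, -0.60 for IFI6 and -0.57 for IFI35, and it was 0.66 for HERC5. STAT2 and HERC6 kept the call in all 17 alternatives without spike-ins. None of the 8 was called with spike-in scaling, where 6 of all tested genes were positive and 0 negative. No explanation was tested.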

How the results depend on the processing

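The count of called genes of the list was recomputed under 6 other settings and without each of 12 libraries, for 9 comparisons. Of 162 such counts, 136 lay within 1.5 times the value reported and 26 did not. With spike-in scaling, 8 genes were called for Vem against vehicle, 0 for TCDD against vehicle, 1 for RSV against vehicle, 4 for RSV+Vem against RSV, 15 for RSV+TCDD against RSV, 2 for RSV+Vem against Vem, 3 for RSV+TCDD against TCDD and 0 for the interaction of RSV and Vem. All 8 for Vem against vehicle were lower, where 196 of all tested genes were higher and 3574 lower. All 15 for RSV+TCDD against RSV were lower, where 1 of all tested genes was higher and 6445 lower. Calls among all tested genes were also few in the RSV comparisons. There were 261 higher and 113 lower for RSV against vehicle, and 337 and 54 for RSV+Vem against Vem. For RSV+TCDD against TCDD there were 162 and 1644. With no filter on low counts, 3 were called for TCDD against vehicle and 1 for the interaction of RSV and TCDD. With only the libraries compared, 1 was called for RSV+TCDD against RSV. Without single libraries, the count ranged from 10 to 17 for Vem against vehicle, 0 to 2 for TCDD against vehicle, 6 to 10 for RSV+Vem against RSV, 0 to 4 for RSV+TCDD against RSV, 7 to 18 for RSV+Vem against Vem, 13 to 21 for RSV+TCDD against TCDD and 3 to 9 for the interaction of RSV and Vem. The low ends were reached without Vem replicate 1 (10 and 7), RSV+Vem replicate 1 (6), TCDD replicate 1 or RSV+TCDD replicate 2 (13) and Vem replicate 2 (3). The cause was not tested.

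Of 1044 recomputed values of 58 changes of named genes, 906 kept direction and call, 130 kept direction only (34 of them with spike-ins) and 8 changed sign, all with spike-ins: IFI6 (-0.0016) and IFITM3 (-0.28) for Vem against vehicle, ISG20 (-0.45) for RSV+TCDD against RSV, and IFI6 (-0.12), IFITM3 (-0.23), OAS3 (-0.30), PARP14 (-0.0023) and STAT2 (-0.066) for RSV+TCDD against TCDD.

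Replicate numbers gave little sign of a difference shared between groups, which does not show that the libraries were unpaired. Replicate 2 minus replicate 1 was correlated over genes between groups, and the 15 values ran from -0.12 to 0.15, with 3 over 0.1 and 1 under -0.1. With the replicate block, 24 genes were called for RSV against vehicle, 18 for Vem against vehicle, 16 for RSV+Vem against Vem and 21 for RSV+TCDD against TCDD, all within 1.5 times the values without it. Depth limits the low genes most: OAS2, BST2, OASL, IRF7, IFITM2, SAMD9L, IFI27 and IRF9 rest on fewer than 100 counts in every library.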
